A study of Homo sapiens with 42 samples.

Results

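The cyclin-dependent kinase (CDK) inhibitor genes were followed in myeloma cells after knockdown of BMI1, a Polycomb protein whose textbook target is the INK4 locus. The genes were CDKN2A, CDKN2B, CDKN2C, CDKN2D, CDKN1A, CDKN1B and CDKN3, and every probe set annotated to any of them in the deposited table was taken. This gave 11 of 54613 probe sets, for 6 of the 7 genes, out of 19775 genes with a probe set of their own. No probe set was annotated to CDKN2C, which is not analysed here. Of the 11, 8 passed the filter on low signals, among 35232 of all probe sets, and represented the same 6 genes.

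The cells were RPMI-8226, an established human myeloma line, derived from malignant plasma cells. They had been stably infected with an shRNA against BMI1 (the BMI1-shRNA line) or with a control shRNA (the control-shRNA line), both switched on by 100 ng/ml doxycycline. The dosed groups were the BMI1-shRNA line with doxycycline at 24, 32 and 48 h and the control-shRNA line with doxycycline at the same times. Each was set against the same line without doxycycline at the same times, and each line also had undosed arrays at 0 h, which made 14 groups of 3 arrays, 42 arrays in all. Whether a line is a clone or a pool, and whether replicates were grown apart, is not stated, and the p-values therefore reflect array-to-array spread that may be technical. For the BMI1-shRNA line at 0 h the label fields disagree. The title names that hairpin without doxycycline, while a characteristic lists the drug and the source field names control cells. These arrays were grouped by title as undosed, and results that rest on them are marked.

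CDK inhibitors are proteins that bind CDKs or their cyclin complexes and hold cells before DNA replication. The INK4 proteins, p16 and p15 among them, block CDK4 and CDK6, which otherwise phosphorylate the retinoblastoma protein and free E2F transcription factors. The Cip/Kip proteins p21 and p27 act mainly on CDK2 complexes. BMI1 is a subunit of Polycomb repressive complex 1, which silences CDKN2A in fibroblasts and stem cells, where loss of BMI1 raises p16 and ARF. Whether the locus is released in a tumour line with lowered BMI1 RNA is the question the members address. The arrays do not measure BMI1 protein.

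The promoters of the INK4 locus are printed because this is the stretch where Polycomb is known to act. The sequences are RefSeq windows on GRCh38.p14 that run from 250 bases before to 50 bases after a transcription start. Capitals mark CG dinucleotides. CDKN2A lies at chr9:21967752-21995324 on the minus strand and has 2 starts. That at chr9:21974808-21975107 begins the p16INK4a transcript, and that at chr9:21995275-21995574 the transcript of ARF, which restrains MDM2. CDKN2B, the p15INK4b gene, has its window at chr9:22009256-22009555, also on the minus strand.
CDKN2A p16INK4a start: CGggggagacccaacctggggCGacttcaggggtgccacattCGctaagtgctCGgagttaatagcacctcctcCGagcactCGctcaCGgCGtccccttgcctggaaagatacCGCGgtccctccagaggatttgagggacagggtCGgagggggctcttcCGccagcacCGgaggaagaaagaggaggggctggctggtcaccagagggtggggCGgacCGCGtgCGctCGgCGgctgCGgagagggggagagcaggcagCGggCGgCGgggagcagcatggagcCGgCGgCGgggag
CDKN2A ARF start: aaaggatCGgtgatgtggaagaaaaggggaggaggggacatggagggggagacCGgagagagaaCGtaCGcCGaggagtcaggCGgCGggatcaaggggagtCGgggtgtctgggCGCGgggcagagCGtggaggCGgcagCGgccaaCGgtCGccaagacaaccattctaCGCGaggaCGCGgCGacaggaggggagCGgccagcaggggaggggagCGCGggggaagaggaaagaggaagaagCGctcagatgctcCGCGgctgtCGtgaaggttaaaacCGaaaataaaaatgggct
CDKN2B start: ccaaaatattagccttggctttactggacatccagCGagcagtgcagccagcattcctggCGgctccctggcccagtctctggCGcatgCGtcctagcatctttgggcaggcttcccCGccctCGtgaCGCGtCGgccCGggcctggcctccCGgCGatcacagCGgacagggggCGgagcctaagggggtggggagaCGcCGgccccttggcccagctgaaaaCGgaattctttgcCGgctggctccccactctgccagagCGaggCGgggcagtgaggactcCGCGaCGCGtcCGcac
These windows held 26, 28 and 25 CG dinucleotides, against a median of 14 over 35116 windows. None of them held CCAAT on either strand, nor TTTGAA, nor TTTNGCGC.

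The windows of CDKN1B and CDKN3 are printed because these genes changed with doxycycline in the BMI1-shRNA line. For CDKN1B the change was not shown to differ from that in the control-shRNA line. Here capitals mark CCAAT (the CCAAT box) and TTTGAA (the cell cycle homology region), each searched on both strands. That of CDKN1B, which encodes p27, lies at chr12:12717118-12717417 on the plus strand. That of CDKN3, which encodes a phosphatase of CDKs, lies at chr14:54396757-54397056 on the plus strand.
CDKN1B start: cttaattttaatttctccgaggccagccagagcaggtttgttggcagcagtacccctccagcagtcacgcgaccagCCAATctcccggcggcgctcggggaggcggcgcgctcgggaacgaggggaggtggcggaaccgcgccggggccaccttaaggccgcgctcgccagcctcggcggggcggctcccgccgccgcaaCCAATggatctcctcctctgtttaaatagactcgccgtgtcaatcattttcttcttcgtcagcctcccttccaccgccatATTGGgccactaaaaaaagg
CDKN3 start: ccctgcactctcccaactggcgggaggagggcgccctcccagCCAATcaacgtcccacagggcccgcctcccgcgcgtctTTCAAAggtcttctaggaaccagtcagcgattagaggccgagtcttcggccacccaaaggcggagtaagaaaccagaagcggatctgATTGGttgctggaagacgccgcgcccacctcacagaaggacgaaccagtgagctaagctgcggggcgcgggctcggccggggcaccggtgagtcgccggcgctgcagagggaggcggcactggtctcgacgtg
CDKN1B held 3 CCAAT boxes and CDKN3 held 2 with 1 cell cycle homology region. CCAAT stood in 34.6% of all 35116 windows, TTTGAA in 15.2%, both together in 5.9% and the E2F-like TTTNGCGC in 1.79%. A match describes letters only.

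The values are linear signals per probe set from the MAS5 algorithm, scaled on every array to the same trimmed mean. Array medians ranged from 16 to 22.5, and correlations between arrays of a group from 0.968 to 0.981. All 6 plasma cell markers examined (SDC1, TNFRSF17, CD38, IRF4, PRDM1, XBP1) were at or above the array median on 42 of 42 arrays. All 4 epithelial markers (EPCAM, KRT8, KRT18, CDH1) were too, CD14 and LYZ of monocytes were on 0 arrays but CSF1R on 30, and the T cell markers were on at most 16. COL1A1 of fibroblasts, HBB of erythroid cells and PAX5 of B cells were also on 42, MS4A1 of B cells on 28, DCN on 22 and COL1A2 on 13, while COL3A1 was on 0 and the erythroid ALAS2 on 2. Log2 fold changes were taken on log2(signal + 5.4), which understates changes of dim probe sets, and are given with standard errors from limma; below, a fold change is on that log2 scale unless written as N-fold. Called means a Benjamini-Hochberg adjusted p under 0.05 in limma over all 35232 probe sets. In bulk RNA, fewer cells with a transcript and less of it per cell cannot be told apart.

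Induction of the BMI1 hairpin lowered BMI1 RNA at every time. Its probe set, also annotated to the readthrough COMMD3-BMI1, read 139.8 to 234 over the 9 dosed arrays of the BMI1-shRNA line, with a median of 168.8. The 9 undosed arrays read 758.3 to 1128.8, with a median of 980.1. The groups did not overlap, and the log2 fold change was -2.43 ± 0.06 (limma adjusted p = 3.04e-28). The 0 h arrays of that line read 1009.3, 1018.3 and 1069.4, inside the range of its undosed arrays and below the lowest undosed control-shRNA array, 1117.2.

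The INK4 locus was not called higher when BMI1 RNA was lowered. None of the 3 retained probe sets of CDKN2A and CDKN2B was called with doxycycline in the BMI1-shRNA line, over the mean of the 3 times or at any single time. Across the 8 probe sets of all members, 3 were called over the mean of the 3 times, 1 higher (CDKN1B) and 2 lower (both of CDKN3). Among all probe sets 5.83% were called, 2.44% higher and 3.39% lower. The median log2 fold change was -0.11 over the 8 and 0.026 over all.

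**Figure D1:**
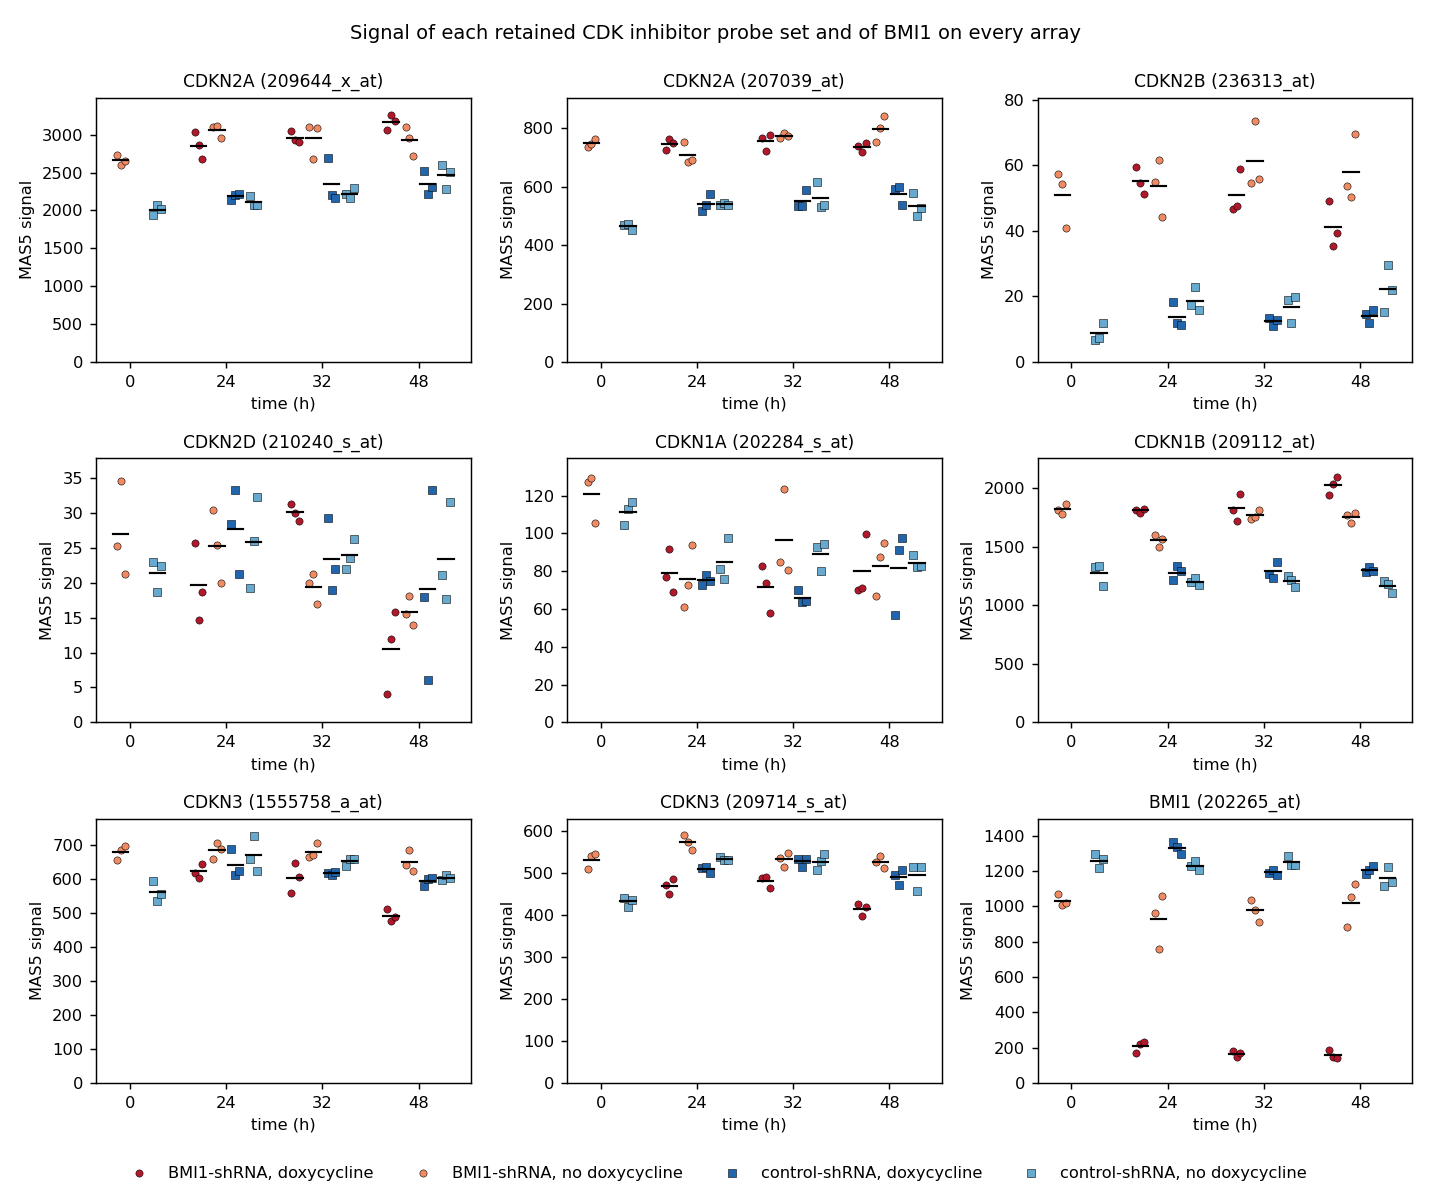
MAS5 signal (linear, y axis from 0) of the 8 retained CDK inhibitor probe sets and of BMI1 against time in hours. Points are single arrays, bars are means of 3 arrays, circles are the BMI1-shRNA line and squares the control-shRNA line, dark with and light without doxycycline. BMI1 drops in dosed BMI1-shRNA arrays only, CDKN2A does not follow it, and CDKN3 in the BMI1-shRNA line is lowest at 48 h with doxycycline.

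CDKN2A was represented by 2 retained probe sets, told apart here by the ending of their names. Both were already bright in the control-shRNA line, which kept its BMI1. Over its 21 arrays they read 1944.9 to 2691 (_x_at) and 453.3 to 615.8 (_at), against array medians of 16 to 22.5. The values below are from the BMI1-shRNA line. The CDKN2A _x_at probe set read 2676 to 3258.2 over the 9 dosed arrays (median 3030.8), against 2676.3 to 3111.9 over the 9 undosed arrays (median 3086.4). The ranges lie almost on top of each other. The log2 fold change was 0.0076 ± 0.039, with a 95% interval of -0.071 to 0.087 (limma adjusted p = 0.96). At 24 h the dosed arrays read 2676, 2864.2 and 3030.8, against 2955.5, 3103 and 3111.9 undosed. At 48 h they read 3064.4, 3175.3 and 3258.2, against 2721, 2953.2 and 3103.9 undosed. The groups overlapped at both times, and the fold changes of -0.099 ± 0.068 and 0.12 ± 0.07 had opposite signs.

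The CDKN2A _at probe set read 718.2 to 778.7 with doxycycline (median 750.3), against 685.6 to 842.8 without it (median 766.2). Its log2 fold change was -0.026 ± 0.036, with an interval of -0.098 to 0.046 (limma adjusted p = 0.799). At 48 h its dosed arrays read 718.2, 738.7 and 750.4, against 751.8, 800.5 and 842.8 undosed. Here the groups did not overlap and dosed arrays were the lower, by a fold change of -0.12 ± 0.06 that was not called (limma adjusted p = 0.416). At 48 h 8.64% of all probe sets had dosed arrays wholly below undosed ones, and the 2 CDKN2A probe sets had opposite signs. The annotation names the gene and not the transcript, and p16INK4a and ARF were not told apart. A name ending in _x_at marks probes that can match other transcripts. A further CDKN2A probe set, which the filter removed, read 1.1 to 21.3 and reached the array median on 2 of 42 arrays.

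CDKN2B, whose product p15 blocks the same kinases as p16 and is induced by TGF-beta, was dim. Its retained probe set read 35.3 to 59.5 in dosed arrays of the BMI1-shRNA line (median 49), against 44.1 to 73.4 in undosed arrays (median 55). The fold change of -0.21 ± 0.125 was not called (limma adjusted p = 0.43, interval -0.46 to 0.043). At 48 h the dosed arrays read 35.3, 39.2 and 49, all below the undosed 50.2, 53.5 and 69.6, and the fold change was -0.44 ± 0.22 (limma adjusted p = 0.358). In the control-shRNA line, which kept its BMI1, the fold change over the mean of the times was -0.37 ± 0.125 (limma adjusted p = 0.63), and the difference between the lines was 0.16 ± 0.18 with an interval of -0.20 to 0.52. The other CDKN2B probe set read 0.7 to 19.6 and reached the array median on 0 arrays. The probe sets of the antisense RNAs of the locus, CDKN2B-AS1 and CDKN2A-AS1, never reached it either.

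CDKN2D encodes p19INK4d, an INK4 protein coded away from 9p21, at chr19:10566460-10568979. Its retained probe set was also dim, at 4 to 31.3 in dosed arrays (median 18.7) and 14 to 30.4 in undosed arrays (median 19.9). At 32 h dosed arrays read 28.9, 30 and 31.3, above the undosed 16.9, 19.9 and 21.3. At 48 h they read 4, 11.9 and 15.8, against 14, 15.5 and 18.1 undosed, with overlap. The fold changes of 0.52 ± 0.30 at 32 h and -0.49 ± 0.30 at 48 h were not called, and that over the mean of the times was -0.088 ± 0.17 (limma adjusted p = 0.873). At 32 h 7.54% of all probe sets had dosed arrays wholly above undosed ones, and 0 of the 8 member probe sets were called against 1.38% of all (3336 of all had an unadjusted p under 0.05). The remaining CDKN2D probe set read 0.8 to 7.9 and never reached the array median.

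CDKN1A, at chr6:36676463-36687332, encodes p21, a Cip/Kip inhibitor induced by DNA damage. Its probe set read 57.9 to 99.7 with doxycycline (median 73.6), against 61 to 123.4 without it (median 85.1), and the ranges overlapped. The log2 fold change was -0.13 ± 0.10 (limma adjusted p = 0.605, interval -0.33 to 0.078). In the control-shRNA line it was -0.21 ± 0.10 (limma adjusted p = 0.852), and the difference between the lines was 0.086 ± 0.14, with an interval of -0.20 to 0.37.

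CDKN1B, whose product p27 binds and inhibits cyclin E and CDK2, was the only member called higher after induction. Its probe set read 1718.4 to 2097.3 over the 9 dosed arrays (median 1823.2), against 1499.9 to 1813.4 over the 9 undosed arrays (median 1738.4). Dosed arrays were higher on the whole, though the ranges overlapped at their edges. The log2 fold change was 0.16 ± 0.03, or 1.12-fold (limma adjusted p = 0.000825). The call held in all 10 other settings tried and on leaving out any of the 18 arrays.

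Against undosed arrays of the same time, CDKN1B was called higher at 24 and 48 h. At 24 h dosed arrays read 1790, 1813.7 and 1823.2, against 1499.9, 1567.4 and 1600.7 undosed, a fold change of 0.22 ± 0.06 (limma adjusted p = 0.0407). At 48 h they read 1943.5, 2033 and 2097.3, against 1700.6, 1766.8 and 1786.3 undosed, a fold change of 0.21 ± 0.06 (limma adjusted p = 0.0194). At both times the groups did not overlap, a state found upward for 9.49% of all probe sets at 24 h and 8.27% at 48 h. At 32 h the arrays overlapped, and the fold change was 0.046 ± 0.055 (limma adjusted p = 0.897). The 0 h arrays of the line, whose labels conflict, read 1781.4, 1815.2 and 1863.6. The dosed 24 h arrays lay within that range and the undosed 24 h arrays below it, so the 24 h difference lies in a low undosed group. The dosed 48 h arrays lay above that range. The 24 h call was lost on leaving out any 1 of its 6 arrays (limma adjusted p 0.0697 to 0.217). The 48 h call was lost without undosed replicate 2 (limma adjusted p = 0.108), dosed replicate 2 (0.0662) or dosed replicate 3 (0.115).

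The rise of CDKN1B was not shown to differ from what doxycycline did in cells with the control hairpin. There its probe set read 1213.7 to 1370.8 with doxycycline (median 1292.1), against 1100.9 to 1250.5 without it (median 1200). The fold change of 0.12 ± 0.03 was not called (limma adjusted p = 0.342, unadjusted p = 0.000783). At 48 h the dosed arrays there read 1285.5, 1294.3 and 1326.6, all above the undosed 1100.9, 1178.3 and 1204.9, as for 4.33% of all probe sets. The difference between the lines in the effect over the mean of the times was 0.041 ± 0.045, with an interval of -0.050 to 0.13 (limma adjusted p = 0.78). In the control-shRNA line 0 of the 8 member probe sets were called, against 0.071% of all (2037 of all had an unadjusted p under 0.05).

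CDKN3 was the member that fell after BMI1 knockdown. Its product, also called KAP, removes the activating phosphate from CDK2, and its RNA peaks late in the cell cycle of dividing cells. Both of its probe sets were called lower over the mean of the 3 times, and both were called lower at 48 h.

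The CDKN3 _s_at probe set read 397 to 490.7 over the 9 dosed arrays (median 462.5), against 510 to 588.6 over the 9 undosed arrays (median 539.3). The groups did not overlap, which downward held for 0.934% of all probe sets. The log2 fold change was -0.26 ± 0.03, or 1.2-fold lower (limma adjusted p = 6e-08). The CDKN3 _a_at probe set read 477.2 to 647.7 with doxycycline (median 604.9), against 624.6 to 707.9 without it (median 672.6), and its fold change was -0.24 ± 0.03 (limma adjusted p = 3.36e-06). Both calls held in each other setting that kept the probe set (9 for _s_at and 10 for _a_at) and on leaving out any of the 18 arrays.

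By time, the CDKN3 _s_at probe set read 448.7, 470.1 and 484.9 in dosed arrays at 24 h, against 554.9, 573.6 and 588.6 undosed. At 32 h it read 462.5, 487.8 and 490.7, against 513.3, 535.3 and 546 undosed. At 48 h it read 397, 418.1 and 424.5, against 510, 525.8 and 539.3 undosed. The dosed arrays lay below the undosed ones at each time, as for 7% of all probe sets at 24 h, 5.92% at 32 h and 8.64% at 48 h. The fold changes were -0.29 ± 0.05 (limma adjusted p = 0.0012), -0.14 ± 0.05 (0.259) and -0.34 ± 0.05 (2.27e-05). For the CDKN3 _a_at probe set the dosed arrays at 48 h read 477.2, 488.6 and 511.6, against 624.6, 641.3 and 687 undosed. That was its lowest group, with a fold change of -0.40 ± 0.06 (limma adjusted p = 9.49e-06). At 24 and 32 h its fold changes were -0.14 ± 0.06 and -0.17 ± 0.06 and were not called.

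At 24 h 2 of the 8 member probe sets were called (CDKN1B and CDKN3 _s_at), against 0.897% of all, and dosed arrays lay wholly below undosed ones for 7% of all. At 48 h 3 of 8 were called, against 3.83% of all. The change of the doxycycline effect between 24 and 48 h was called for 0 of 8 member probe sets, against 0.275% of all, with 3041 of all at an unadjusted p under 0.05. It was -0.26 ± 0.08 for the CDKN3 _a_at probe set (limma adjusted p = 0.241) and -0.48 ± 0.31 for CDKN2B (limma adjusted p = 0.725).

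CDKN3 was not called with doxycycline in the control-shRNA line. There the CDKN3 _s_at probe set read 471.3 to 533.5 with doxycycline (median 510.4), against 455.6 to 543.2 without it (median 528.1). The fold changes were -0.024 ± 0.031 for this probe set and -0.055 ± 0.034 for the CDKN3 _a_at probe set. The difference between the lines was -0.23 ± 0.04 for the CDKN3 _s_at probe set (limma adjusted p = 0.000489) and -0.18 ± 0.05 for the CDKN3 _a_at probe set (limma adjusted p = 0.0283). These were the 2 of 8 member probe sets called for that difference, against 2.53% of all. At 48 h the differences were -0.33 ± 0.07 and -0.38 ± 0.08 (limma adjusted p = 0.00828 and 0.00729), and 1.65% of all probe sets were called. With only the groups compared in the fit, both 48 h calls were lost (limma adjusted p = 0.25 for _s_at and 0.0982 for _a_at).

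The difference between the lines for the CDKN3 _a_at probe set, but not that for the CDKN3 _s_at probe set, lost its call when certain single arrays were left out. Its limma adjusted p was 0.0603 without undosed control-shRNA replicate 3 at 24 h and 0.0578 without dosed control-shRNA replicate 1 at 24 h. For CDKN3 it was 0.0559 without dosed BMI1-shRNA replicate 1 at 32 h, 0.0515 without undosed BMI1-shRNA replicate 3 at 32 h and 0.054 without undosed BMI1-shRNA replicate 2 at 48 h.

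**Figure D2:**
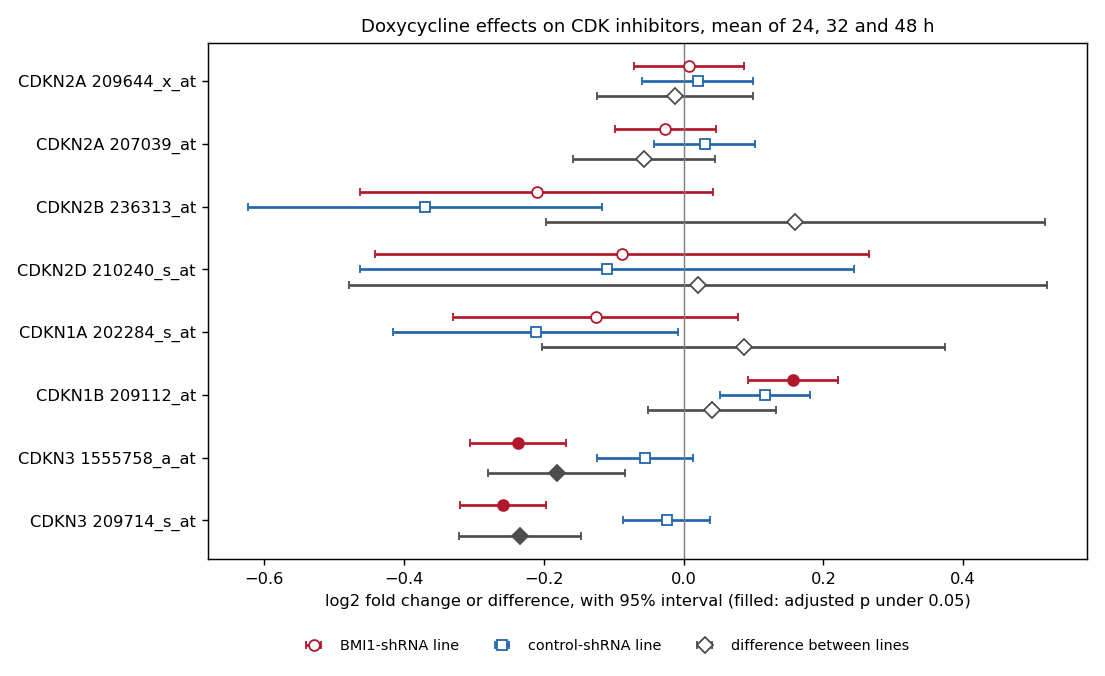
Log2 fold change with over without doxycycline, mean of 24, 32 and 48 h, for each retained CDK inhibitor probe set, with 95% intervals from limma. Circles are the BMI1-shRNA line, squares the control-shRNA line and diamonds the difference between the lines, filled where the adjusted p was under 0.05. Both CDKN3 rows are filled for the BMI1-shRNA line and the difference, CDKN1B for the BMI1-shRNA line only, and the CDKN2A intervals are short and cross 0.

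The INK4 locus differed between the lines in cells without doxycycline. Over 24, 32 and 48 h, CDKN2A, CDKN2B and CDKN1B were higher in the BMI1-shRNA line than in the control-shRNA line. In all 4 of the member probe sets called, the 9 arrays of the BMI1-shRNA line lay wholly above the 9 of the control-shRNA line. The lines differed in many genes: 35.1% of all probe sets were called, 17% higher and the rest lower, and 6.2% lay wholly above.

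CDKN2B differed most among the members. Its probe set read 44.1 to 73.4 in the BMI1-shRNA line (median 55) and 11.8 to 29.5 in the control-shRNA line (median 18.9), a log2 fold change of 1.37 ± 0.125, or 2.58-fold (limma adjusted p = 9.79e-12). In the control-shRNA line this probe set was at or above the array median on 6 of all 21 arrays. CDKN2A read 2676.3 to 3111.9 on the _x_at probe set (median 3086.4), against 2070.2 to 2597.4 in the control-shRNA line (median 2214.9). It read 685.6 to 842.8 on the _at probe set (median 766.2), against 499.3 to 615.8 (median 537.5) in the control-shRNA line. The fold changes were 0.40 ± 0.04 and 0.48 ± 0.04 (limma adjusted p = 7.3e-11 and 4.71e-14). CDKN1B read 1499.9 to 1813.4 (median 1738.4), against 1100.9 to 1250.5 in the control-shRNA line (median 1200), a fold change of 0.50 ± 0.03 (limma adjusted p = 3.53e-16).

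The other members were not called. CDKN2D and CDKN1A had fold changes of -0.23 ± 0.17 and -0.038 ± 0.10, and the CDKN3 probe sets 0.066 ± 0.034 and 0.070 ± 0.031, all with overlapping arrays. BMI1 itself was lower in the undosed BMI1-shRNA line, by -0.32 ± 0.06 (limma adjusted p = 2.12e-05), with arrays that overlapped. There is 1 line per hairpin, so hairpin and line cannot be told apart in this comparison. Other measures moved with line: GAPDH signal at the 3-prime end, divided by that at the 5-prime end, averaged 0.935 ± 0.0251 in the BMI1-shRNA line and 1.03 ± 0.0401 in the control-shRNA line (SD, n = 21 each). Among markers of other cell types, CDH1 had a median of 381.3 and 44.9, and MS4A1 of 107.3 and 17.2, in the same order of lines, while KRT8 had 42.8 and 44.7 and PAX5 35.9 and 38.6. Their part in the result was not tested.

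At 0 h, where the labels of the BMI1-shRNA arrays conflict, 6 of the 8 member probe sets were called higher in the BMI1-shRNA line. Among all probe sets 20.9% were called there, 10.2% higher. CDKN2B read 40.8, 54.3 and 57.4 in the BMI1-shRNA line, against 6.7, 7.4 and 11.9 in the control-shRNA line, a fold change of 2.00 ± 0.22. Those control-shRNA arrays lay below their array medians of 17.3, 17.7 and 18.9, so the size of this difference is uncertain. CDKN2A had fold changes of 0.41 ± 0.07 and 0.68 ± 0.06, CDKN1B of 0.52 ± 0.06, and CDKN3 of 0.27 ± 0.06 and 0.29 ± 0.05. The arrays of all 6 lay wholly above those of the control-shRNA line, which held for 16.4% of all probe sets.

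**Figure D3:**
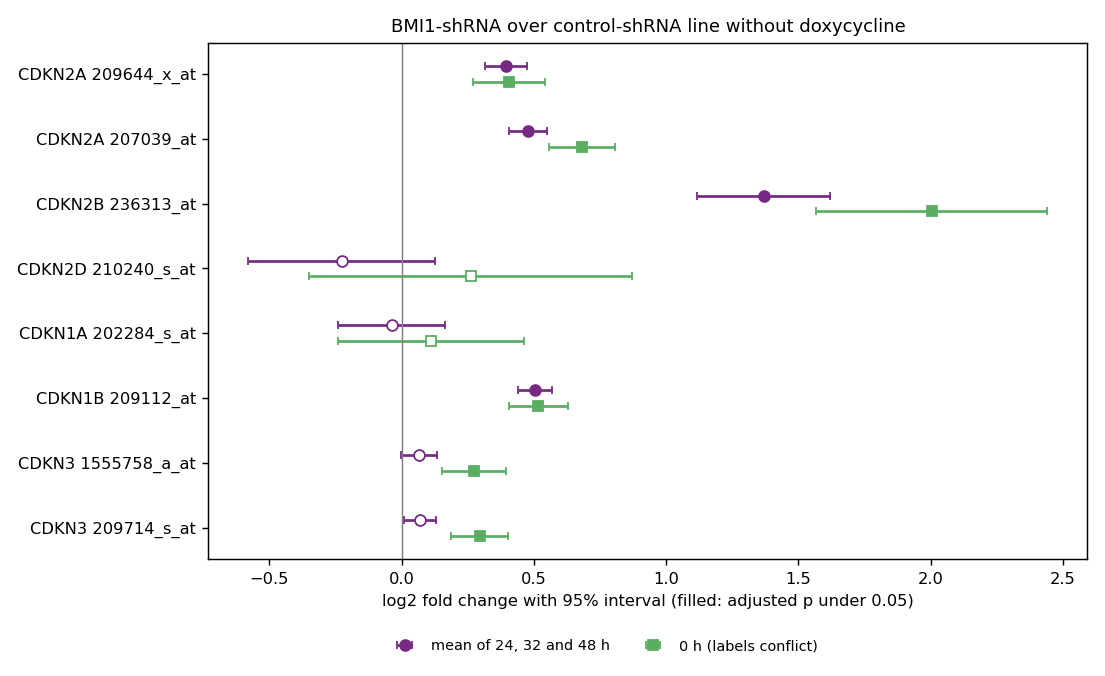
Log2 fold change of the BMI1-shRNA over the control-shRNA line without doxycycline, with 95% intervals from limma, for each retained CDK inhibitor probe set. Circles are the mean of 24, 32 and 48 h and squares 0 h, where labels conflict; filled symbols had an adjusted p under 0.05. CDKN2B stands farthest to the right, and CDKN2A and CDKN1B are filled at both.

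Time in culture without doxycycline changed 3 member probe sets in the control-shRNA line. Between 48 h and 0 h, 3 of 8 member probe sets were called and all 3 were higher at 48 h, against 3.56% of all probe sets called in either direction. CDKN2B read 15.1, 21.8 and 29.5 at 48 h, against 6.7, 7.4 and 11.9 at 0 h, a fold change of 0.95 ± 0.22 (limma adjusted p = 0.00639). Those 0 h arrays lay below their array medians of 17.3, 17.7 and 18.9, so the size of this change is uncertain. The other CDKN2B probe set, which the filter removed, averaged 1.73 at 48 h and 8.6 at 0 h, the opposite direction. The CDKN2A _x_at probe set read 2285.2, 2511.9 and 2597.4 at 48 h, against 1944.9, 2019.4 and 2068.2 at 0 h, a fold change of 0.29 ± 0.07 (limma adjusted p = 0.00796). The CDKN3 _s_at probe set read 455.6, 512.2 and 513.8 at 48 h, against 419.1, 434.5 and 440.5 at 0 h, a fold change of 0.19 ± 0.05 (limma adjusted p = 0.032). In each of the 3 the groups did not overlap, as upward for 10.5% of all probe sets.

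The CDKN2B call was lost without undosed control-shRNA replicate 2 at 48 h (limma adjusted p = 0.0799), and that of CDKN3 on leaving out any of 5 of its 6 arrays (limma adjusted p up to 0.158). Between 0 and 24 h in the same line both CDKN3 probe sets were called higher at 24 h, by 0.25 ± 0.06 and 0.30 ± 0.05 (limma adjusted p = 0.0235 and 0.000897), against 0.925% of all. The first of these, on the _a_at probe set, was lost on leaving out undosed control-shRNA replicate 1 or 2 at 24 h or replicate 2 or 3 at 0 h (limma adjusted p up to 0.218).

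In the undosed BMI1-shRNA line, whose 0 h labels conflict, 0 of 8 member probe sets were called between 0 and 48 h, against 2.53% of all, with 5557 of all at an unadjusted p under 0.05. The changes in the 2 lines were not shown to differ: 0 of 8 were called for that difference, against 0.139% of all, with 2604 of all at an unadjusted p under 0.05. For CDKN2B it was -0.79 ± 0.31 (limma adjusted p = 0.528). Between 0 and 24 h CDKN1B was called lower at 24 h in the BMI1-shRNA line, against 0.735% of all probe sets called. It read 1499.9, 1567.4 and 1600.7 at 24 h, against 1781.4, 1815.2 and 1863.6 at 0 h, a fold change of -0.23 ± 0.06 (limma adjusted p = 0.0386). This call was lost on leaving out any 1 of its 6 arrays (limma adjusted p 0.0697 to 0.175).

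CDKN1A had its highest group median at 0 h in both lines, without passing the test. In the BMI1-shRNA line it read 66.8, 87.3 and 94.9 at 48 h, against 105.7, 127.4 and 129.5 at 0 h, a fold change of -0.52 ± 0.17 (limma adjusted p = 0.102). In the control-shRNA line it read 82, 82.5 and 88.8 at 48 h, against 104.2, 112.9 and 116.7 at 0 h, a fold change of -0.38 ± 0.17 (limma adjusted p = 0.26). The groups did not overlap in either line, as downward for 8.48% of all probe sets in the BMI1-shRNA line and 8.29% in the control-shRNA line.

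The genes around the inhibitors were read from 8 lists, at 1 brightest probe set per gene over 14704 genes, of which 3.46% were called higher and 4.07% lower with doxycycline in the BMI1-shRNA line over the mean of the 3 times. The lists were compiled with earlier results of these data known. Among the targets of the inhibitors, of 9 G1 and S phase cyclins and CDKs, 0 were called, with a median of 0.021 against 0.019 over all genes. CDKN1C, the remaining Cip/Kip gene, was at 0.0086.

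Of 13 genes of the RB, E2F and DP families, 3 rose and 1 fell. E2F1, an activator of replication genes, averaged 129 in dosed and 177 in undosed arrays, a fold change of -0.45 ± 0.12 (limma adjusted p = 0.0166). E2F5 and E2F7, which repress transcription, rose by 0.22 ± 0.05 and 0.23 ± 0.05, and E2F3 by 0.13 ± 0.04. The median of this list was 0.064.

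Around the locus, 0 of 5 tested neighbours on 9p21 were called (MTAP, KLHL9, FOCAD, HACD4 and MLLT3), of 10 listed. Of 18 tested regulators of INK4-ARF, 2 rose and 1 fell. These were RING1, the ubiquitin ligase partner of BMI1 (0.11 ± 0.03), ZBTB7A, a repressor of ARF in mouse cells (0.23 ± 0.06), and SUZ12 of Polycomb repressive complex 2 (-0.13 ± 0.04).

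**Figure D4:**
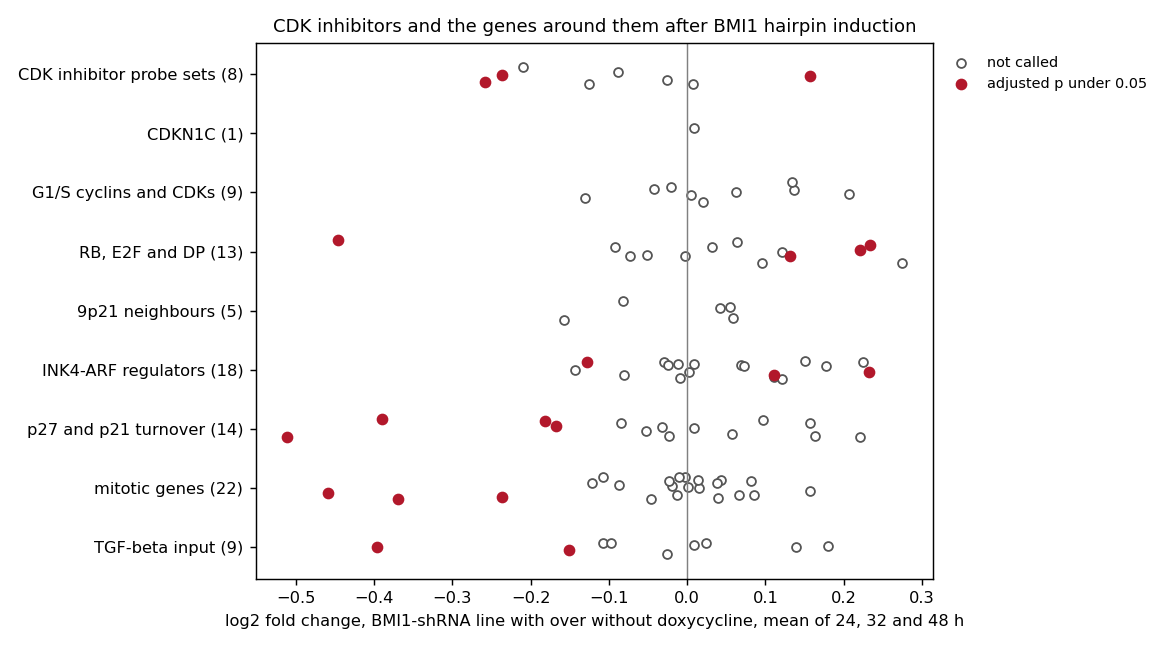
Log2 fold change with over without doxycycline in the BMI1-shRNA line, mean of 24, 32 and 48 h, for the CDK inhibitor probe sets and for the tested genes of each list, with the number tested in brackets. Filled points had an adjusted p under 0.05. DTL, in the turnover row, fell by 0.51 on the log2 scale, and the filled points of the turnover, mitotic and TGF-beta rows all lie left of 0.

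Of 14 genes that control transcription or turnover of p27 and p21, 4 fell and 0 rose. DTL, which targets p21 for destruction on PCNA, averaged 1247 in dosed and 1768 in undosed arrays, a fold change of -0.51 ± 0.04 (limma adjusted p = 4.33e-13). PCNA itself had -0.39 ± 0.04. CUL1, the scaffold of the ubiquitin ligase that degrades p27, had -0.17 ± 0.03, and FOXO3, which activates CDKN1B, had -0.18 ± 0.03.

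Of 22 genes of mitosis, 3 fell and 0 rose. KIF4A, a chromokinesin, averaged 588 in dosed and 806 in undosed arrays, a fold change of -0.46 ± 0.04 (limma adjusted p = 3.11e-11). The kinase AURKA had -0.37 ± 0.04 and the kinesin KIF2C -0.24 ± 0.03. The median of the list was -0.0063. Of 9 genes of the TGF-beta input to CDKN2B, 2 fell: SMAD4, the shared partner of receptor SMADs (-0.40 ± 0.05), and the receptor TGFBR1 (-0.15 ± 0.04).

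In the control-shRNA line 0 genes of the 8 lists were called over the mean of the times, against 0.122% of all genes. For the difference between the lines, the same 4 turnover genes, 3 mitotic genes and 2 TGF-beta genes were called lower, and HMMR, a mitotic spindle protein, with them at -0.24 ± 0.06. No gene of the other lists described here was called. Among all genes 0.945% were called higher and 2.37% lower for that difference.

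Between the undosed lines the lists split both ways, as did all genes, with 21.2% called higher and 21.4% lower. In the BMI1-shRNA line 3 cyclins and CDKs were higher and 3 lower of 9, 4 and 6 of 13 RB, E2F and DP genes, 1 and 1 of 5 neighbours on 9p21, 3 and 5 of 18 regulators, 3 and 4 of 14 turnover genes, and 8 and 6 of 22 mitotic genes. The TGF-beta list had 5 of 9 higher and 0 lower in the BMI1-shRNA line. Whether this bears on the CDKN2B level of that line was not tested. TGFBR1 averaged 812 in the BMI1-shRNA line and 210 in the control-shRNA line, a fold change of 1.92, and TGFBR2 averaged 90 and 34, a fold change of 1.28. CCND2, a D cyclin that partners CDK4 and CDK6, averaged 7030 and 3230, a fold change of 1.12. UBE2C, a mitotic ubiquitin-conjugating enzyme, averaged 356 and 41, a fold change of 2.98. On 9p21, MTAP had 0.28 and HACD4 -1.15.

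Genes whose level followed each member most closely over the 14 group means, after taking out the mean of each line, are given as a description. These points share arrays and scaling, and the genes were picked for the highest r. CDKN3 (_a_at) was followed by G3BP1, ARMC1 and ERG28 (r = 0.96, 0.93 and 0.92). CDKN1B was followed by RAP2B, VAMP4 and AKIRIN1 (0.92 each), and CDKN2A (_x_at) by MGST1, SPTAN1 and RNPEP (0.95, 0.93 and 0.93). CDKN1A was followed by MANSC1, TRIB1 and CCL5 (0.93, 0.93 and 0.90). For the dim genes the closest were LINC03040, ARRDC3-AS1 and DGKA for CDKN2B (0.91, 0.86 and 0.83), and PEF1, FERRY3 and UMPS for CDKN2D (0.91, 0.87 and 0.86).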

How the data were processed

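Gene expression was measured on 42 one-colour Affymetrix U133 Plus 2 arrays, 14 groups of 3. The deposited values are linear intensity signals per probe set, made by the authors with MAS5 per the submitters' processing notes; the version is not given in the sources used here. The values showed a trimmed mean of 150.02 to 150.03 on every array, with 2% left out at each end. MAS5 subtracts mismatch signal, which makes dim probe sets noisy. Symbols came from the platform annotation: 41091 probe sets had 1 gene, 1801 several and 11721 none.

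From these, log2(signal + 5.4) was taken (5.4 is the 25th percentile of all values), 62 control probe sets were left out, and probe sets at or above the array median on at least 3 of 42 arrays were kept. limma 3.58.1 in R 4.3.3 fitted all 14 groups with an intensity trend, with two-sided tests and Benjamini-Hochberg adjustment over 35232 probe sets. The script was tested on simulated data with planted changes larger than those of the members called with doxycycline. That run does not show how well changes of the members' size are found. The number of arrays limits the precision.

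The members, lists and comparisons were chosen with earlier results of these data known, and 10 comparisons, those of each time in the control-shRNA line, the difference between lines at each time, the lines at 0 h and the 24 h minus 0 h and difference of 48 h minus 0 h changes, were added after values had been seen. By rule all retained member probe sets are named, with up to 4 list genes of the largest change among those that passed the test, the 9p21 neighbours and further line differences being named after their values were seen, and the 3 genes most like each member. Alternatives were pseudocounts, scaling, filters, 1 probe set per gene, no trend, fitting only the groups compared, leaving out the 0 h arrays, a replicate block and leaving out each array. 1 further gene list is not reported here.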

Additional observations from a re-analysis of the deposited data

Results flagged for a closer look

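The effect of doxycycline on CDKN3 differed between the lines by the test of that difference in limma, on both probe sets. Over the mean of 24, 32 and 48 h the difference, BMI1-shRNA minus control-shRNA, was -0.18 on the _a_at probe set and -0.23 on the _s_at probe set, in log2 units. At 48 h it was -0.38 on the _a_at probe set and -0.33 on the _s_at probe set. With only the groups compared in the fit, both 48 h calls were lost (limma adjusted p = 0.0982 for _a_at and 0.25 for _s_at). At 24 h 0 of 8 member probe sets were called for the difference, against 2 higher and 75 lower of all 35232. At 32 h 0 of 8 were called, against 36 higher and 163 lower of all.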

How the results depend on the processing

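The 3 calls over the mean of the times in the BMI1-shRNA line held under each setting that kept the probe set and on leaving out any array. No called value reversed. Of 194 counts of called member probe sets under other settings, 178 were unchanged or changed by no more than the ratio of 3 to 2. The other 16 moved further. For doxycycline in the BMI1-shRNA line at 24 h the count was 2, but 1 with no filter, 1 with 1 probe set per gene, 1 with no intensity trend and 0 with only the groups of the comparison fitted. With the replicate number as a block it was 1. Arrays of different groups with the same number did not deviate together on average (mean r 0.000986 over 273 pairs, range -0.237 to 0.201). These pairs span all lines and times, and pairing within a line and time was not examined separately. With 1 probe set per gene the difference between the lines had 1, against 2, both over the mean of the times and at 48 h, and 24 h minus 0 h in the control-shRNA line had 1, against 2. With only the groups of the comparison fitted, the difference at 48 h had 0, against 2, the 48 h minus 0 h change of the control-shRNA line 0, against 3, and its 24 h minus 0 h change 1, against 2. For 24 h minus 0 h in the BMI1-shRNA line, the count of 1 became 0 with no filter, no trend or only its groups, and 2 with the 75th percentile filter or 1 probe set per gene. Fewer features or arrays enter the settings with 1 probe set per gene or only the groups compared; for the others the cause was not tested. Leaving out arrays gave 1 to 1 at 24 h, 2 to 3 at 48 h, 1 to 2 for the difference between the lines, 4 to 5 between the undosed lines, 2 to 3 for 48 h minus 0 h and 1 to 2 for 24 h minus 0 h in the control-shRNA line, and 0 to 1 for 24 h minus 0 h in the BMI1-shRNA line. With only its groups fitted, CDKN1B at 48 h had a limma adjusted p of 0.197. Of 1472 member values under other settings, 15 lost and 8 gained a call. CDKN2B in the control-shRNA line and CDKN2D in both lines lie close to or below the array medians, where small changes cannot be seen.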
